A study of Mus musculus with 4 samples.

Results

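The 8 genes described here encode the D-type cyclins (Ccnd1, Ccnd2, Ccnd3), the kinases they activate (Cdk4, Cdk6) and the retinoblastoma proteins those kinases phosphorylate (Rb1, Rbl1, Rbl2). They were taken by symbol from the deposited expression tables and matched by Entrez identifier to the count table, which holds 26286 genes; all 8 were found there and all 8 passed the low-count filter that left 14912 genes. D cyclins carry growth factor signals into the cell cycle. Bound to Cdk4 or Cdk6, they phosphorylate Rb1 and its relatives Rbl1 (p107) and Rbl2 (p130), which releases E2F transcription factors and opens the way into S phase. Inhibitors of the Ink4 family, among them the product of Cdkn2a, bind Cdk4 and Cdk6 and block this step. Haematopoietic stem cells are mostly quiescent, and mice that lack all D cyclins, or Cdk4 and Cdk6 together, die before birth with failing blood formation.

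RNA was sequenced from LSK cells (Lin-Sca+Kit+), the fraction of C57BL/6 mouse bone marrow that holds stem cells and multipotent progenitors. There were 2 libraries with the genotype label Hhex deletion and 2 labelled Wild-type, and Hhex encodes a homeobox transcription factor. The sources used here do not give how Hhex was deleted, the driver of any recombinase, or the age and number of mice. A p-value here reflects just the spread among 4 libraries. The wild-type libraries differed in genes of the immediate early response, described at the end, with Egr1 at 929 and 13.9 CPM (reads scaled to a common library size) in replicates 1 and 2. The sources used here do not say whether these libraries came from separate mice. The Hhex-deleted-labelled libraries differed in sex-linked genes, as given below, and so were not repeats of the same RNA. Total counts per library lay between 27871827 and 29501591.

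Hhex reads went against the deletion label: they stood at 179 and 188 CPM (reads scaled to a common library size) in the Hhex-deleted-labelled libraries, against 127 and 115 CPM in wild-type. A gene-level count also holds exons outside a deleted part, so this does not check the deletion, and every direction below refers to libraries as labelled. Labelled Hhex-deleted replicate 1 stood apart in sex-linked genes, with 2662 CPM of Xist, against at most 2.66 CPM in any other library, so the Ccnd1 result is also given without it. Of the genes that define the gate, Kit stood at 605 and 698 CPM in the Hhex-deleted-labelled libraries, against 566 and 601 CPM in wild-type. Ly6a, the gene of Sca-1, stood at 20.7 and 42.5 CPM in the Hhex-deleted-labelled libraries, against 25.4 and 25.4 CPM in wild-type. Of 9 genes of the mature cells the sort removes, Cd3e, Ly6g and Ms4a1 stayed below 1 CPM in every library.

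Because the 3 D cyclins are paralogues, the coding sequences were compared for stretches in which a read could match either gene. The pairs below show the longest run shared by Ccnd1 with each relative, and by Cdk4 with Cdk6, in GENCODE vM21 transcripts, with the shared bases in capitals and 15 coding bases on each side in lower case.
Ccnd1 (from Ccnd2 pair): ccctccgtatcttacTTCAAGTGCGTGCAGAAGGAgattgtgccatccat
Ccnd2: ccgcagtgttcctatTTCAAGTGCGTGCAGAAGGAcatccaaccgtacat
Ccnd1 (from Ccnd3 pair): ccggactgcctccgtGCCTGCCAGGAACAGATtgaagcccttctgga
Ccnd3: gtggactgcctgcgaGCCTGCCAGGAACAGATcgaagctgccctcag
Cdk4: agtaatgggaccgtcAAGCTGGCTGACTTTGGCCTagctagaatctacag
Cdk6: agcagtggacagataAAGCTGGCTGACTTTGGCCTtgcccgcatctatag
The shared run of Ccnd1 and Ccnd2 was 20 bases long and began at coding position 133 of Ccnd1, counted from the A of the start codon, in a coding sequence of 888 bases. That of Ccnd1 and Ccnd3 was 17 bases, that of Ccnd2 and Ccnd3 14 bases and that of Cdk4 and Cdk6 20 bases. Within the Rb family the longest runs were 14 bases for Rb1 and Rbl1, 12 for Rb1 and Rbl2 and 13 for Rbl1 and Rbl2. The sources used here give no read length, and untranslated parts were not compared.

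Ccnd3 was the most abundant D cyclin transcript in LSK cells per unit of gene length, in every library. Its level was 83.6 and 79.5 RPKM (CPM divided by the deposited gene length in kilobases) in the Hhex-deleted-labelled libraries, against 75.0 and 84.0 RPKM in wild-type. Ccnd2 came second in every library, with 31.7 and 44.4 RPKM in the Hhex-deleted-labelled libraries, against 36.4 and 39.2 RPKM in wild-type. Ccnd1 was the lowest D cyclin, with 0.767 and 1.49 RPKM in the Hhex-deleted-labelled libraries, against 8.04 and 8.42 RPKM in wild-type. In no library did the levels of these 3 genes change places, and the ranges of the 3 genes over all 4 libraries did not overlap.

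As shares of the summed D cyclin RPKM, Ccnd3 held 67.7% ± 6.10 in the Hhex-deleted-labelled libraries and 63.3% ± 0.750 in wild-type (SD, n = 2 each). Ccnd2 held 31.3% ± 5.73 in the Hhex-deleted-labelled libraries and 30.1% ± 0.514 in wild-type (SD, n = 2 each). The share of Ccnd1 was 0.661% and 1.18% in the Hhex-deleted-labelled libraries, against 6.73% and 6.39% in wild-type. The Ccnd1 shares of the groups did not overlap, and a two-sided exact permutation test over the 4 libraries gave p = 0.333, the smallest this design allows. The order of Ccnd2 and Ccnd3 depends on gene length, which is 5772 bases for Ccnd2 and 2261 bases for Ccnd3 in the deposited table. By CPM alone, Ccnd2 held 48.8% and 58.0% of the D cyclin sum in the Hhex-deleted-labelled libraries, against 51.2% and 50.5% in wild-type. By the same measure Ccnd3 held 50.5% and 40.7% in the Hhex-deleted-labelled libraries, against 41.3% and 42.4% in wild-type, so Ccnd2 ranked first in 3 libraries and Ccnd3 in labelled Hhex-deleted replicate 1.

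**Figure D1:**
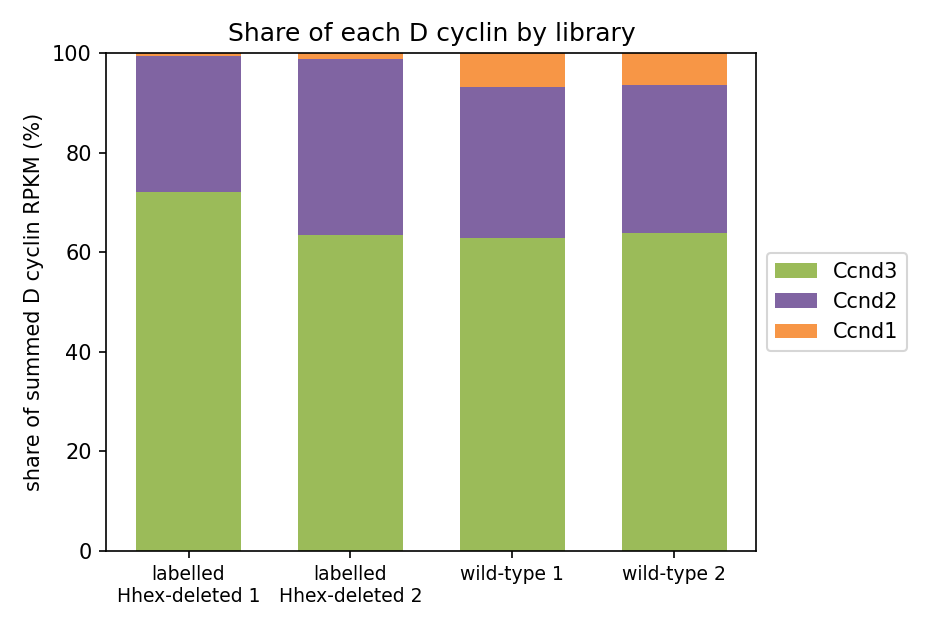
Share of each D cyclin (vertical axis, percent of the summed D cyclin RPKM) in each library, labelled Hhex-deleted on the left and wild-type on the right. Ccnd3 takes between 62.8% and 72.1% of each bar, and the top segment, Ccnd1, is 0.661% and 1.18% in the Hhex-deleted-labelled libraries, against 6.73% and 6.39% in wild-type.

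Ccnd1 was the single member that differed between the groups past the test. It had 85 and 170 reads in the Hhex-deleted-labelled libraries, against 837 and 913 reads in wild-type. The wild-type libraries lay close together (31.2 ± 1.01 CPM, SD, n = 2), while the Hhex-deleted-labelled libraries differed 1.94-fold from each other (4.28 ± 1.93 CPM, SD, n = 2), and the higher of them was still far below both wild-type libraries. The log2 fold change was -2.87 ± 0.32 (SE), a level 7.29-fold lower (95% interval 4.18 to 12.7) in the Hhex-deleted-labelled libraries, with an edgeR quasi-likelihood adjusted p of 0.0226. Ccnd1 thereby moved to percentiles 13.7 and 19.0 of RPKM among all tested genes in the Hhex-deleted-labelled libraries, against percentiles 42.9 and 43.8 in wild-type. Leaving out labelled Hhex-deleted replicate 1 gave a log2 fold change of -2.47. That fit holds a lone Hhex-deleted-labelled library, so the spread within that group is not measured in it. The call was lost without wild-type replicate 1 (edgeR adjusted p = 0.0679) and without wild-type replicate 2 (edgeR adjusted p = 0.111), at log2 fold changes of -2.90 and -2.82.

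Of all 8 members 1 was lower and 0 were higher by edgeR, where 2.60% of the 14912 tested genes were called, 1.48% higher and 1.12% lower. Ccnd1 was also the one member with an unadjusted p below 0.05, a mark that 15.8% of all tested genes met. The same single gene was called by DESeq2, which called 6.58% of its genes, and by limma-voom, which called 1.35%. Ccnd1 was also the one member whose groups did not overlap, where 45.5% of all tested genes had groups that did not overlap. The median log2 fold change of the 8 members was 0.02, beside -0.01 over all tested genes. The fall of Ccnd1 was known from earlier results of these data when the members were chosen, so the count is a description.

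**Figure D2:**
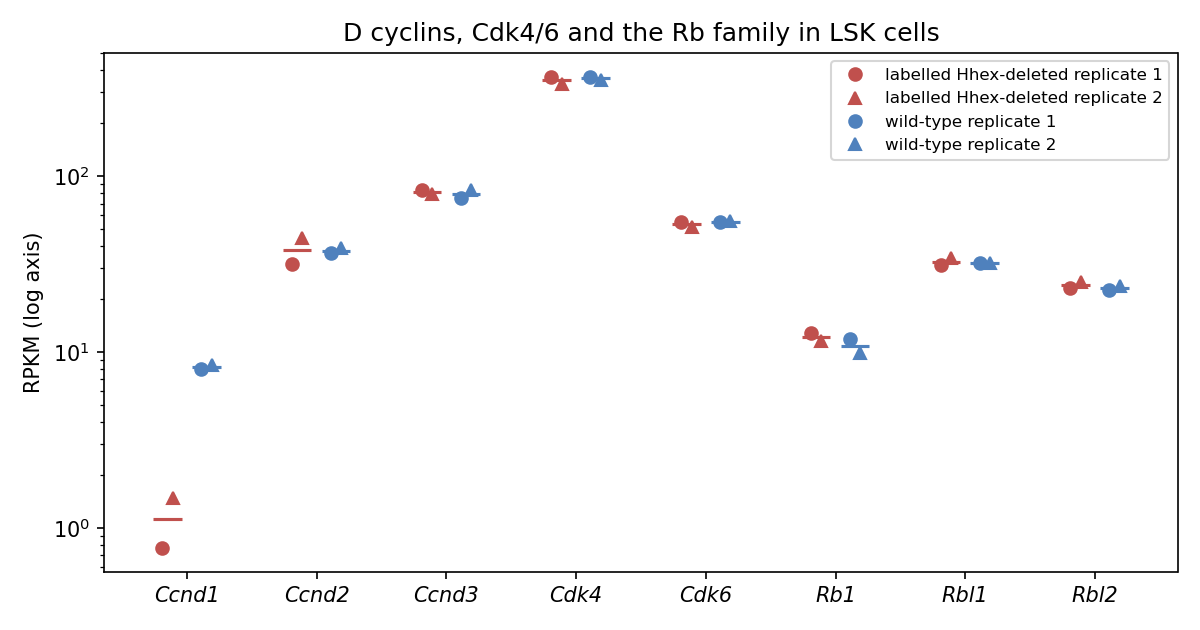
RPKM of each member (vertical log axis) by library, with labelled Hhex-deleted libraries left of wild-type for each gene, circles for replicate 1, triangles for replicate 2 and short lines at group means. Ccnd1 sits at 0.767 and 1.49 RPKM in the Hhex-deleted-labelled libraries, below 8.04 and 8.42 RPKM in wild-type, while the groups overlap for the other 7 genes.

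Ccnd2 and Ccnd3, the other D cyclins, gave no call in either direction. Ccnd2, which growth factor signals through STAT and MYC proteins are known to induce, had 5334 and 7719 reads in the Hhex-deleted-labelled libraries, against 5767 and 6462 in wild-type. Its libraries labelled Hhex-deleted lay on either side of both wild-type libraries and differed 1.40-fold from each other, so the fitted log2 fold change of 0.01 has a wide 95% interval of -0.41 to 0.43. Ccnd3, the D cyclin needed for expansion of immature T cells, had 5519 and 5420 reads in the Hhex-deleted-labelled libraries, against 4651 and 5429 in wild-type. The fitted difference was 0.04 on the log2 scale (95% interval -0.18 to 0.25), whose upper end is a 1.19-fold higher level.

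The summed D cyclin level was 116 and 125 RPKM in the Hhex-deleted-labelled libraries, against 119.5 and 132 RPKM in wild-type, with a mean of 121 ± 6.58 RPKM in the Hhex-deleted-labelled libraries and 126 ± 8.57 RPKM in wild-type (SD, n = 2 each, two-sided exact permutation p = 0.667). The mean of Ccnd1 alone differed by -7.10 RPKM, labelled Hhex-deleted minus wild-type, which is about the size of the SD of the sum within a group. Relative to Ccnd1, Ccnd3 stood 109 and 53.5 times as high in the Hhex-deleted-labelled libraries, against 9.33 and 9.98 times in wild-type. The ratio of Ccnd3 to Ccnd2 was 2.64 and 1.79 in the Hhex-deleted-labelled libraries, against 2.06 and 2.14 in wild-type, and its groups overlapped.

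Cdk4 was the most abundant of the 8 transcripts in every library. It stood at 369 and 333 RPKM in the Hhex-deleted-labelled libraries, against 369 and 352 RPKM in wild-type, at about percentile 99.0 of all tested genes. Cdk6, the other kinase partner of the D cyclins, stood at 55.3 and 51.3 RPKM in the Hhex-deleted-labelled libraries, against 54.8 and 55.6 RPKM in wild-type. The ratio of Cdk4 to Cdk6 was nearly constant, at 6.66 and 6.48 in the Hhex-deleted-labelled libraries and 6.73 and 6.34 in wild-type. The log2 fold changes were -0.04 for Cdk4 (95% interval -0.25 to 0.16) and -0.05 for Cdk6 (95% interval -0.24 to 0.14). Summed, the kinases exceeded the D cyclins 3.65-fold and 3.06-fold in the Hhex-deleted-labelled libraries, against 3.54-fold and 3.10-fold in wild-type.

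The promoter of Cdk4 is shown because it belongs to the highest member and carries repeats of the E box CACGTG, the sequence that MYC proteins bind. It is the RefSeq sequence of GRCm38.p6, plus strand, at chr10:127063285-127063584, running from 250 bases before the start site to 50 bases after it. Capitals mark every match to the 12 motifs searched, which here are the E box CACGTG and the GC box GGGCGG or its complement.
Cdk4: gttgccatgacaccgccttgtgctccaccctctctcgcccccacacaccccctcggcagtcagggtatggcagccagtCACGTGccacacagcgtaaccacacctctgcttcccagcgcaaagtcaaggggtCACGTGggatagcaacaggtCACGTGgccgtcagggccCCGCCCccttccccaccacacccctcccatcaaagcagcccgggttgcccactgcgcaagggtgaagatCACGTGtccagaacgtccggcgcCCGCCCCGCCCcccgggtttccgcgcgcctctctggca
It holds 4 E boxes, the first base of each lying 172, 118, 98 and 11 bases before the start site, while 7.15% of 32851 mouse promoters of the same length hold any and 0.0244% hold at least 4. Myc, named here after its values were seen, stood at 415 and 415 CPM in the Hhex-deleted-labelled libraries, against 312 and 366 CPM in wild-type, and did not pass the test (log2 fold change 0.29, edgeR adjusted p = 0.21). A match is a run of letters and not a measured binding site.

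The Rb family was ordered Rbl1, Rbl2, Rb1 from high to low in every library. Rbl1, itself a known E2F target that rises in cycling cells, stood at 31.3 and 34.1 RPKM in the Hhex-deleted-labelled libraries, against 32.0 and 32.0 RPKM in wild-type. Rbl2, the pocket protein known for holding E2F targets silent in resting cells, stood at 23.2 and 25.2 RPKM in the Hhex-deleted-labelled libraries, against 22.5 and 23.7 RPKM in wild-type. Rb1, the retinoblastoma gene, stood at 12.9 and 11.5 RPKM in the Hhex-deleted-labelled libraries, against 11.9 and 9.86 RPKM in wild-type. None of these neighbouring levels overlapped over the 4 libraries.

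No member of the Rb family passed the test. The log2 fold change was 0.03 for Rbl1 (95% interval -0.16 to 0.23), 0.07 for Rbl2 (95% interval -0.13 to 0.27) and 0.17 for Rb1 (95% interval -0.12 to 0.45, edgeR adjusted p = 0.604). The summed level was 67.4 and 70.8 RPKM in the Hhex-deleted-labelled libraries, against 66.3 and 65.5 RPKM in wild-type, and these groups did not overlap (two-sided exact permutation p = 0.333, the smallest possible). Rb1 overlaps Lpar6 and Rcbtb2 on the opposite strand in GENCODE vM21, and Lpar6 had 1442 and 1818 reads in the Hhex-deleted-labelled libraries, against 1197 and 1295 in wild-type, a depth close to that of Rb1 (1735 and 1608 reads in the Hhex-deleted-labelled libraries, against 1505 and 1303 in wild-type). These overlaps are of whole gene spans, introns included, and shared exon bases were not looked for. As the sources used here give no strand setting, reads of any shared exon bases cannot be assigned. The same holds for Ccnd1 with LTO1, Ccnd3 with Bysl, Cdk4 with Tspan31 and Rbl2 with Aktip.

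The promoters of Rbl1 and Ccnd3 are shown for the E2F motif of Rbl1 and for the 2 start sites that RefSeq gives Ccnd3. Rbl1 lies at chr2:157204485-157204784 on the minus strand, and Ccnd3 at chr17:47504801-47505100 and chr17:47593217-47593516 on the plus strand, all GRCm38.p6 from RefSeq, with capitals for matches to the motifs searched.
Rbl1: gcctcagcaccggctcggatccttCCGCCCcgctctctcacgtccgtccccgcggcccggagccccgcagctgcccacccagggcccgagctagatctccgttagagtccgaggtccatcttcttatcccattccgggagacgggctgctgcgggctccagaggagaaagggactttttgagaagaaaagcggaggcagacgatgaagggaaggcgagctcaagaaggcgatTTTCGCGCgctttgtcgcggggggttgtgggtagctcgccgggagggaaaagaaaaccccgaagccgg
Ccnd3 start 1: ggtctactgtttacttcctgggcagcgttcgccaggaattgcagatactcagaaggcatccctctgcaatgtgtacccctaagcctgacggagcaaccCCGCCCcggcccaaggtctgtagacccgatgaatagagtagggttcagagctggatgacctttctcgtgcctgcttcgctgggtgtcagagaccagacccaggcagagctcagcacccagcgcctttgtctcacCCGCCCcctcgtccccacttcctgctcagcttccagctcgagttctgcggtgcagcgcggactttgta
Ccnd3 start 2: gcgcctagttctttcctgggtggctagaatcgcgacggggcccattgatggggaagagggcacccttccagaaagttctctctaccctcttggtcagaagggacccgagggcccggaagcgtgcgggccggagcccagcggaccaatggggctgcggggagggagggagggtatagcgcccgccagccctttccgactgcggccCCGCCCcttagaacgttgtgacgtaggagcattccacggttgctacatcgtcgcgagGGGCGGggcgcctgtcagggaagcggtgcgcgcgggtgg
Rbl1 holds the E2F core TTTCGCGC beginning 18 bases before its start site, a run found in 0.323% of all promoters, and no other member promoter matched any of the 3 E2F forms searched (the others were TTTGGCGC, in 0.514% of all promoters, and TTTCCCGC, in 1.07%). The GC box GGGCGG occurs in 5 of the 6 member promoters and in 35.7% of all promoters. None of these windows held, on either strand, the CRE forms TGACGTCA (1.79% of all promoters) and TGACGTAA (0.499%), the AP-1 form TGACTCA (5.20%), or the TCF/LEF forms CTTTGAA (5.14%) and CTTTGTT (5.85%). The homeodomain core TAATTA (5.29%) and the STAT form TTCNNNGAA (8.30%) were not in them either. A promoter was found for 5 of the 8 members: Ccnd3, Cdk4, Cdk6, Rbl1 and Rbl2. The counts are per gene, so they do not say how much of the Ccnd3 level comes from each start.

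**Figure D3:**
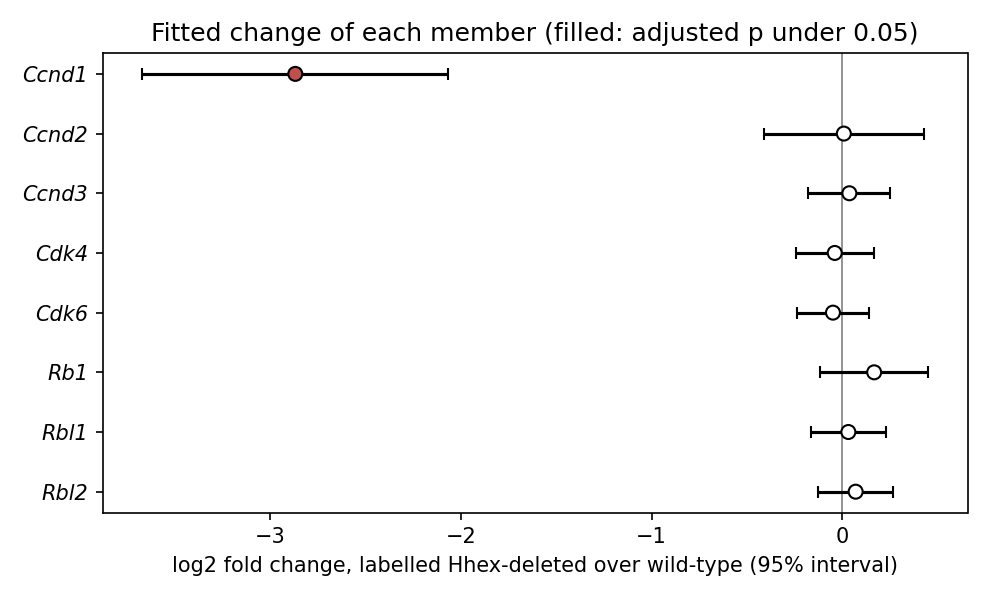
Log2 fold change of each member (horizontal axis, labelled Hhex-deleted over wild-type) with its 95% interval from the edgeR fit, filled where the adjusted p is under 0.05. Ccnd1 lies at -2.87 with an interval from -3.67 to -2.06, and the intervals of the other 7 genes span 0 and lie between -0.41 and 0.45.

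Of 7 inhibitors of Cdk4/6 and Cdk2, 2 rose, both at very low levels. Cdkn2a had 30 and 27 reads in the Hhex-deleted-labelled libraries, against 1 and 2 in wild-type (edgeR adjusted p = 0.0239), and its neighbour Cdkn2b 18 and 23 in the Hhex-deleted-labelled libraries, against 1 and 0 in wild-type (edgeR adjusted p = 0.04). Beside 14490 and 13509 reads of Cdk4 these counts are small, and the number of reads says nothing of protein. The other 5 did not pass the test, and none of the 7 was lower. DESeq2 called 1 of these genes higher and limma-voom 2. The count was 1 without labelled Hhex-deleted replicate 1 and 0 when labelled Hhex-deleted replicate 2 or either wild-type library was left out.

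Genes on the far side of the Rb proteins gave no call. Of 10 E2F and DP genes, which encode the transcription factors held by Rb proteins, 0 were higher and 0 lower by edgeR, 0 fell below 0.05 unadjusted, and 0 were called by DESeq2 or limma-voom. Their median log2 fold change was 0.03. The smallest unadjusted p-values belonged to Tfdp1, the DP partner of E2F proteins, at -0.18 ± 0.09 (SE), and to E2f2 at 0.25 ± 0.14 (SE). Of the later cyclins and their kinases 7 of 8 were tested, Ccna1 having 0 reads in every library, and 0 were called by edgeR, DESeq2 or limma-voom, with 0 at an unadjusted p under 0.05. Cdk2, the kinase of E cyclins, stood at -0.05 ± 0.07 (SE), and the mitotic cyclin Ccnb2 at 0.12 ± 0.09 (SE).

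The 27 E2F target genes of DNA replication lay close to 0, with log2 fold changes from -0.23 to 0.19 and a median of 0.00. Of them 0 were called by edgeR, DESeq2 or limma-voom, and 1 was lower at an unadjusted p under 0.05. That gene was Tk1, a thymidine kinase, with 76.4 and 68.9 CPM in the Hhex-deleted-labelled libraries, against 84.4 and 86.2 CPM in wild-type. Rrm2, a subunit of ribonucleotide reductase, stood at -0.22 ± 0.10 (SE). The MuvB core forms the repressor complex of resting cells with Rbl1 or Rbl2. Of 7 MuvB core and partner genes, 0 were called by any of these tools, and 1 was lower at an unadjusted p under 0.05. It was Mybl2, a MYB factor that joins MuvB in S phase, at -0.34 ± 0.10 (SE, edgeR adjusted p = 0.151), while Lin37 stood at -0.08 ± 0.11 (SE).

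Among 12 genes of the Cdk-activating kinase and of cyclin D turnover, 0 were called by edgeR, 1 was lower at an unadjusted p under 0.05, DESeq2 called 1 lower and limma-voom 0. It was Usp2, a deubiquitinase known to stabilise cyclin D1 protein, with 5.31 and 4.44 CPM in the Hhex-deleted-labelled libraries, against 9.16 and 11.7 CPM in wild-type (log2 fold change -1.10 ± 0.21 SE, edgeR adjusted p = 0.0599). Gsk3b, a kinase that marks cyclin D1 for destruction, stood at 0.10 ± 0.07 (SE). Of 24 transcription factors known to act on D cyclin genes 1 was higher and 0 lower, with 5 higher and 1 lower at an unadjusted p under 0.05, while DESeq2 called 2 higher and limma-voom 1. The call was Lef1, the Wnt pathway factor for which Ccnd1 is a known target in other cells, with 201 and 221 reads in the Hhex-deleted-labelled libraries, against 10 and 5 in wild-type (log2 fold change 4.70 ± 0.36 SE, edgeR adjusted p = 0.00486). Lef1 was higher and Ccnd1 lower in the Hhex-deleted-labelled libraries, and a link between them was not tested.

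**Figure D4:**
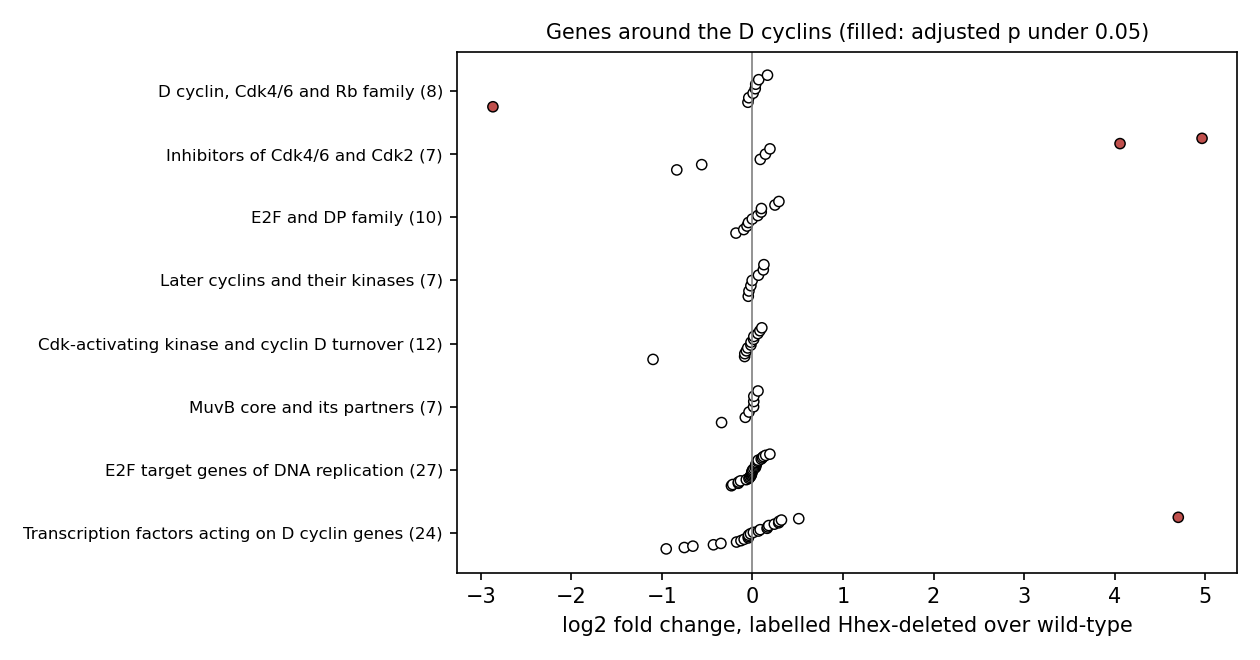
Log2 fold change (horizontal axis, labelled Hhex-deleted over wild-type) of each tested gene in the 8 lists, with the number tested in brackets and filled points where the edgeR adjusted p is under 0.05. The filled points are Ccnd1 at -2.87, Cdkn2a and Cdkn2b, whose fitted values rest on 3 and 1 wild-type reads, and Lef1 at 4.70, and all 27 E2F target genes lie between -0.23 and 0.19.

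None of the 3 tested neighbours of Ccnd1 passed the test. LTO1, which overlaps Ccnd1 in the annotation, stood at 26.3 and 27.6 CPM in the Hhex-deleted-labelled libraries, against 22.7 and 25.8 CPM in wild-type (log2 fold change 0.15 ± 0.11 SE). Fgf3 stood at 0.05 ± 0.15 and Tpcn2 at 0.06 ± 0.10 (SE), the one tested gene found beyond Ccnd1 on that side. Near Ccnd2, Tigar, whose product lowers glycolytic flux, had 13.1 and 10.2 CPM in the Hhex-deleted-labelled libraries, against 19.4 and 22.9 CPM in wild-type, and missed the threshold (log2 fold change -0.86 ± 0.17 SE, edgeR adjusted p = 0.0653). Near Ccnd3, AI661453 fell by 1.46 ± 0.17 (SE) on the log2 scale, with 4.52 and 4.11 CPM in the Hhex-deleted-labelled libraries, against 12.3 and 11.4 CPM in wild-type (edgeR adjusted p = 0.0187). The other 6 of the 11 neighbours of the 3 D cyclins, among them Taf8, Bysl and Med20 beside Ccnd3, had log2 fold changes from -0.16 to 0.22 and did not pass the test.

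The genes whose pattern over the 4 libraries lay nearest to Ccnd1 were Ighv9-3, Ephb4 and Cfap57. Likeness was the Euclidean distance between centred log2 CPM values, over 13426 other genes averaging 1 CPM or more with reads in every library, and the distance was 0.527 for Ephb4 and 0.621 for Cfap57, with Ighv9-3 nearer than both. Ighv9-3 had 2.02 and 4.91 CPM in the Hhex-deleted-labelled libraries, against 17.9 and 28.7 CPM in wild-type, and did not pass the test (edgeR adjusted p = 0.0906). Cfap57, a gene of cilia, had 1.10 and 1.63 CPM in the Hhex-deleted-labelled libraries, against 6.31 and 8.33 CPM in wild-type (log2 fold change -2.42 ± 0.29 SE, edgeR adjusted p = 0.019). Ephb4, an ephrin receptor gene, had 0.240 and 0.630 CPM in the Hhex-deleted-labelled libraries, against 2.19 and 2.28 CPM in wild-type, and did not pass the test (edgeR adjusted p = 0.0641). Ighv9-3 is one of many similar immunoglobulin segments, so its reads may be shared with relatives.

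Markers of cell types moved between the groups as well. In bulk RNA, fewer cells of a type and less RNA per cell cannot be told apart. Of 11 granulocyte monocyte progenitor genes 4 were lower and none higher, with a summed level of 9343 to 12935 CPM in the Hhex-deleted-labelled libraries, against 18368 to 22393 CPM in wild-type, so this list moved in the same direction as Ccnd1. Of 12 early lymphoid genes 10 were higher, and of 8 tested mast cell and basophil genes 5 were higher. Their parts in the Ccnd1 result were not tested.

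Genes of non-haematopoietic and mature cells were compared in the same way. The 13 stromal genes summed to 79.1 to 106 CPM in the Hhex-deleted-labelled libraries and 93.1 to 97.5 CPM in wild-type, of which Pdgfrb alone held 68.5 and 92.6 CPM in the Hhex-deleted-labelled libraries, against 78.8 and 76.0 CPM in wild-type. Of the other 12, 9 stayed below 1 CPM in every library. The remaining 3, named after their values were seen, were Bgn, Col1a2 and Cxcl12. Bgn, a matrix proteoglycan gene, stood at 3.43 and 7.56 CPM in the Hhex-deleted-labelled libraries, against 10.7 and 17.8 CPM in wild-type. Col1a2, a collagen gene, stood at 5.04 and 1.39 CPM in the Hhex-deleted-labelled libraries, against 1.53 and 1.47 CPM in wild-type. Cxcl12, a chemokine gene of marrow stroma, stood at 0.959 and 2.92 CPM in the Hhex-deleted-labelled libraries, against 1.13 and 0.910 CPM in wild-type. None of the 5 tested stromal genes passed the edgeR test, with 1 lower at an unadjusted p under 0.05, and DESeq2 called 1 lower. Macrophage genes summed to 125 to 133 CPM in the Hhex-deleted-labelled libraries and 132 to 163 CPM in wild-type. Of these 12 genes 4 were higher and 1, Vcam1, was lower, with a median log2 fold change of 1.40. Vcam1 alone held 22.3 and 23.4 CPM in the Hhex-deleted-labelled libraries, against 54.1 and 74.9 CPM in wild-type. Endothelial genes summed to 272 to 277 CPM in the Hhex-deleted-labelled libraries and 208 to 228 CPM in wild-type, with 1 of 9 tested genes higher. No gene of these marker lists was at 0 in every library. Of 16 long-term stem cell genes 2 were higher and 1 lower. Of the sort genes, Cd48 was higher (log2 fold change 0.63, edgeR adjusted p = 0.0239) and the other 5 did not pass the test. Without either wild-type library, 0 sort, endothelial and long-term stem cell genes were called. With 1 library left out, 2 to 4 granulocyte monocyte progenitor genes were lower and 1 to 4 macrophage genes higher, the 1 without wild-type replicate 2.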

How the data were processed

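RNA of sorted LSK cells was sequenced in 4 libraries, 2 per group, each assigned by its title. The authors deposited raw read counts per Entrez gene with a gene length, and log2 RPKM values per library. Subread, featureCounts and limma, with the build mm9, stand in the submitters' processing notes without versions or roles. With length added back, the deposited log2 RPKM values sorted within each library had a median gap of 0.000809 between libraries, nearly one distribution, and the counts were used for the main results.

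Counts were fitted in R 4.3.3 with edgeR 4.0.16: filterByExpr by group (minimum count 10, minimum total 15), TMM factors, robust quasi-likelihood with group as the single term over all 4 libraries, and Benjamini-Hochberg adjustment over 14912 genes with a threshold of 0.05. RPKM here is TMM-scaled CPM divided by the deposited length in kilobases. SE is the log2 fold change divided by the square root of F, and 95% intervals use it with the fit's degrees of freedom, both approximations. A floor of 3 counts was 0.0995 to 0.109 CPM. Alternatives used DESeq2 1.42.0 and limma 3.58.1. On simulated counts of 14912 genes for this comparison, 62 of 100 changes of 2-fold and 85 of 100 of 4-fold were recovered by edgeR, with 17 false calls. Simulated counts with no change in any gene also gave 17 edgeR calls, so the threshold let false calls through there. The labels' replicate numbers are shared between groups, with nothing that says they pair libraries.

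Members, lists and tests were chosen with earlier results of these data known. The text names all 8 members, in each list of the pathway every gene past the test or otherwise the 2 smallest p-values, up to 2 tested neighbours on each side of each D cyclin in the order of RefSeq genes of GRCm38, and the 3 genes nearest to Ccnd1 in pattern, among those with reads in every library, since log2 of 0 is undefined. Of the genes in the lists, 184 matched a deposited and 26 a current RefSeq symbol. One result among the mature lineage genes is not reported here. Promoters were matched by symbol, and no coordinate was used with the authors' build.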

Additional observations from a re-analysis of the deposited data

How the results depend on the processing

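Ccnd1 stayed lower in the Hhex-deleted-labelled libraries under all 10 alternatives, with log2 fold changes from -3.41 to -2.47, both at leave-one-out fits, and it was past the threshold in 7. It was not past it on the deposited log2 RPKM values (-2.95, limma adjusted p = 0.0665), where 0 members were lower, nor without either wild-type library; leaving out 1 library gave 0 to 1 members lower. No other member was past the threshold under any alternative (lowest adjusted p = 0.251, for Ccnd2). Ccnd2 turned to -0.012 with limma-voom and -0.012 with the replicate block, and ran from -0.25 to 0.23 with 1 library left out. With 1 library left out, Ccnd3 ran from -0.044 to 0.13, Cdk4 from -0.12 to 0.038, Cdk6 from -0.10 to 0.0096 and Rbl1 from -0.025 to 0.091. The causes were not tested.

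With the replicate number as a block 185 genes were higher and 130 lower, against 221 and 167 without it, and Ccnd1 stood at -2.92 (edgeR adjusted p = 0.0283). With this block, and on deposited log2 RPKM, 0 inhibitors, 0 sort genes and 0 endothelial genes were higher, against 2, 1 and 1. The deposited log2 RPKM values cover only 12662 genes. Cdkn2b, an inhibitor called by the main fit, was not found among their symbols and so could not be called on them. On deposited log2 RPKM 0 granulocyte monocyte progenitor genes were lower, against 4, and 0 transcription factors higher, against 1. The deviations of same-numbered libraries from their group means correlated at r = 0.326. This value is equal for both pairs by construction, while its positive sign is not. Libraries with the same number thus tended to deviate together. With 2 pairs this does not show what the numbers stand for. DESeq2 called 488 genes higher and 501 lower, limma-voom 123 and 79, and limma on deposited log2 RPKM 34 and 6. Without the low-count filter 272 were lower. Leaving out 1 library gave 84 to 366 higher and 40 to 231 lower, with a lone library in a group assumed to vary like the others. Without division by length Ccnd1 held 7.28% of the D cyclin sum in wild-type, Ccnd2 53.4% in the Hhex-deleted-labelled libraries and 50.9% in wild-type, and Ccnd3 45.6% in the Hhex-deleted-labelled libraries and 41.9% in wild-type. Ccnd1 rests on 85 reads in its lowest library, the shallowest member value here.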

Other observations

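Genes of the immediate early response, a fast and brief reaction to growth factors or handling, differed by replicate number in both groups. The examples were chosen after their values were seen. Fos, an AP-1 subunit, stood at 545 and 60.1 CPM in labelled Hhex-deleted replicates 1 and 2, and at 865 and 89.3 CPM in wild-type replicates 1 and 2. Jun, its partner, stood at 1044 and 203 CPM in the Hhex-deleted-labelled libraries and at 1189 and 172 CPM in wild-type. Egr1 stood at 472 and 14.7 CPM in the Hhex-deleted-labelled libraries and at 929 and 13.9 CPM in wild-type. Ccnd1 stood at 2.91 and 5.64 CPM in replicates 1 and 2 of the Hhex-deleted-labelled libraries. In those of wild-type it stood at 30.5 and 32.0 CPM. Ccnd1 is a known target of AP-1 factors, whose part in its level was not tested.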
